A study of Mus musculus with 2 samples.

Results

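The Smad proteins and the receptors that act on them were examined in erythroid progenitors labelled as knockout (KO) for the endothelial cell-selective adhesion molecule (ESAM) and in their wild-type (WT) counterparts. The set was fixed by gene name and holds 10 genes, Smad1 to Smad7, the TGF-beta receptors Tgfbr1 and Tgfbr2, and the activin receptor Acvr1b. Every probe whose RefSeq accession led to one of these symbols was taken, which gave 16 of the 27235 probes with a gene name and 16 of the 55680 probes in all. Of the 10 genes, 6 had 2 probes and 4 had 1 probe. The WT mice were C57BL/6, and the ESAM-KO mice were labelled as the same strain and as ESAM-KO. By the study's methods, homozygous ESAM-KO mice were bred from heterozygous parents, and no restriction of the knockout to 1 tissue was described. All were young adults, and both genotypes had received a single injection of 120 mg/kg of the antimetabolite 5-fluorouracil (5-FU), with marrow taken 8 days later. Pre CFU-E, early progenitors that give rise to red cells, were sorted as Lin- c-Kit+ Sca1- cells that were also low or negative for the Fc gamma receptors, low for CD41 and positive for endoglin and CD150. Marrow of several mice was pooled for each genotype, and each pool was measured on 1 array.

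Signals of the TGF-beta family are read by pairs of cell-surface kinases. Tgfbr2 binds TGF-beta and switches on the type I receptor Tgfbr1, whereas Acvr1b is a type I receptor for activin and related ligands. Tgfbr1 and Acvr1b phosphorylate Smad2 and Smad3, whereas receptors for bone morphogenetic proteins (BMPs) phosphorylate Smad1 and Smad5. The phosphorylated Smads join Smad4, the partner they have in common, and act on genes in the nucleus, and Smad6 and Smad7 inhibit the pathway. In blood formation, TGF-beta is known as a brake on the division of stem and progenitor cells, and BMP signals through Smad5 take part in the production of red cells after anemia. The activity of these proteins lies in their phosphorylation, which an mRNA array does not measure.

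The ratio of ESAM-KO over WT is given on the log2 scale, after each array was set to the 75th percentile of its own intensities, 201.4 for WT and 251.1 for ESAM-KO. This scaling lowered every log2 ratio by 0.32 compared with unscaled values, and the intensities printed are unscaled. Each genotype had 1 array, so there were no replicates. No value has an SD over samples or a p-value, and the genotype cannot be told apart from the pool, sort and amplification it was measured in. The error printed with a log2 ratio is that of the scanner software, which covers the spot and not the animals. It lay between 0.20 and 0.31 for the 13 probes that were well above background on both arrays. Where a probe was well above background on 1 array only, its ratio is a bound, the bright reading over the dim one, with the dim one raised, where it was lower, to the lowest signal found well above background on its array, which was 12.6 for WT and 13.2 for ESAM-KO. A dim reading above that signal was kept as it was, so there the bound equals the measured ratio and carries its error. The criterion of a 2-fold difference was that of the study's methods.

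Esam itself, the targeted gene, was dim, at 27.4 for WT and 20.6 for ESAM-KO. Its only probe was flagged well above background in both libraries, and its log2 ratio of -0.73 ± 0.31, or 1.66-fold lower (1.33-fold without scaling), was within 2-fold. Whether this probe lies in the deleted part of the gene is not given in the sources used here. The array therefore gave no firm check of the knockout label, and ESAM-KO stands throughout for the library so labelled, also in each direction given. The erythroid progenitor markers Gata1, Klf1, Epor and Kit were detected in both genotypes and lay within 2-fold, whereas Slc4a1, Alas2 and Nfe2 were past 2-fold and lower in ESAM-KO. Markers of other blood cells were less alike between the pools. All 10 neutrophil markers were past 2-fold and lower in ESAM-KO, with a median log2 ratio of -3.36, and their summed scaled intensity was 297 for WT and 39.9 for ESAM-KO, in units of each array's 75th percentile. The markers of mast cells, basophils and eosinophils summed to 8.00 and 0.794, with Cpa3, Mcpt8 and Fcer1a at background level in both genotypes, and those of B cells to 2.90 and 0.915. Past 2-fold, 1 of the 7 markers of the first list was higher and 3 were lower, and 4 of the 7 B cell markers were lower. Of the macrophage markers, C1qa was 2.28-fold higher in ESAM-KO and Vcam1 was 7.36-fold lower at its brightest probe and 2.04-fold lower at the other. Megakaryocyte markers summed to 2.94 and 4.37, mostly from Pf4 (1.93 and 2.79), and past 2-fold 2 of the 7 were higher and 2 lower. Endothelial markers summed to 11.9 and 9.98 (Cdh5 at background), mostly from 1 Kdr probe (10.2 and 9.34). A second Kdr probe was at background level in both genotypes. Of that list, Pecam1 was 3.98-fold lower and Tek at least 2.14-fold higher in ESAM-KO. T and NK cell markers summed to 1.74 and 1.78 (Cd3g, Ncr1 and Klrb1c at background), with Cd3d at least 3.75-fold lower. In bulk RNA, fewer cells of a type and less RNA per cell cannot be told apart. The part of these other cells in the values that follow was not tested.

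**Figure D1:**
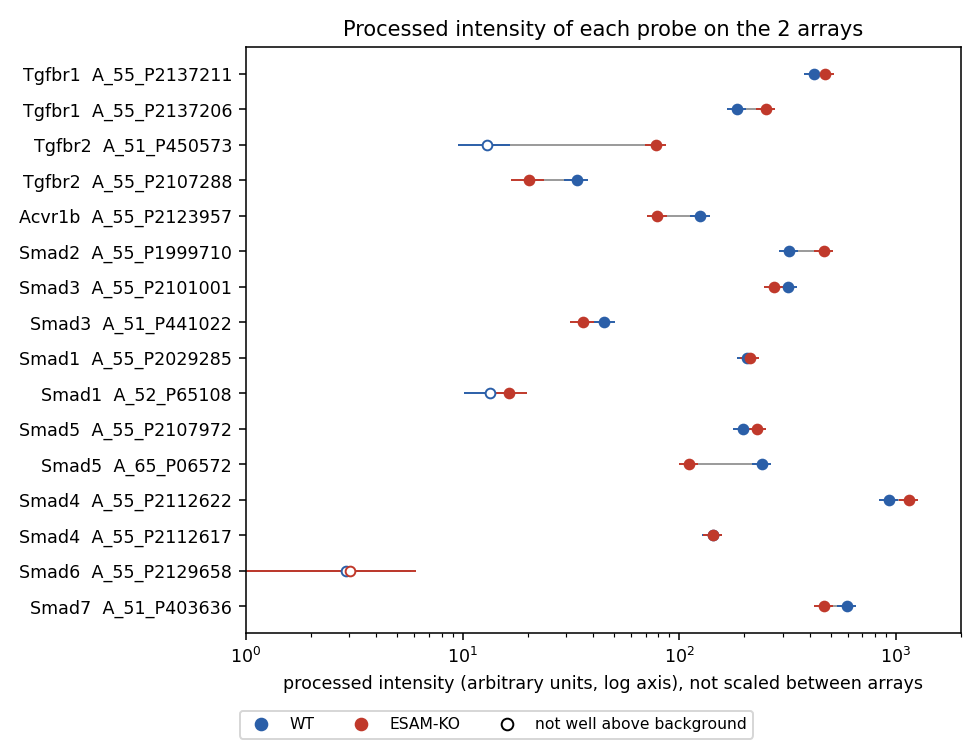
Processed intensity of the 16 probes on the WT array (blue) and the ESAM-KO array (red), on a log axis and not scaled between arrays, with the error of the scanner software as a bar (cut at the axis for Smad6) and open points where the spot was not well above background. The points of Smad5 A_65_P06572 and of Tgfbr2 A_51_P450573 lie farthest apart, in opposite directions, and both points of Smad6 lie near 3.

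Among the receptors, Tgfbr1 was close to equal on the arrays, Acvr1b was lower in ESAM-KO by just under 2-fold, and the probes of Tgfbr2 went in opposite directions. The brighter Tgfbr1 probe (A_55_P2137211, NM_009370) read 417.7 for WT and 472.6 for ESAM-KO, giving a log2 ratio of -0.14 ± 0.20. The other (A_55_P2137206) read 185.0 and 251.7, a log2 ratio of 0.13 ± 0.21. Both values were smaller than their scanner error, and the difference of 0.27 between the probes was within its error of 0.29.

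Tgfbr2, the receptor that binds TGF-beta first, was dim at both probes. Probe A_51_P450573 (NM_009371) read 13.0 in WT, not well above background, and 78.0 in ESAM-KO. The WT reading was kept as it was, so its bound of 4.81-fold higher in ESAM-KO is the measured log2 ratio, 2.265 ± 0.416. Probe A_55_P2107288 of the same accession read 33.6 and 20.3, both well above background, a log2 ratio of -1.04 ± 0.31, which is 2.06-fold lower. The measured log2 ratios of the probes were 3.31 apart, with an error of 0.52 for that distance, so that a single level of Tgfbr2 cannot be given from these arrays. Without scaling, the second probe was within 2-fold, at -0.73, and with the normexp background correction the bound of the first probe was too, at 0.77.

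Acvr1b, the activin type I receptor, had 1 probe (A_55_P2123957, NM_007395), which read 125.3 for WT and 79.4 for ESAM-KO. Its log2 ratio of -0.98 ± 0.21, or 1.97-fold lower, lay just inside the criterion. It passed 2-fold with median scaling (-1.11) or quantile normalization (-1.01). It was -0.66 without scaling and -0.59 with normexp and quantile normalization.

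Of the Smads that Tgfbr1 and Acvr1b phosphorylate, Smad3 was lower in ESAM-KO at both probes and Smad2 was not, and all were within 2-fold. Smad2 (A_55_P1999710, NM_001252481) read 319.6 for WT and 468.0 for ESAM-KO, giving a log2 ratio of 0.23 ± 0.20. It was the member with the highest value among the probes measured on both arrays. The brighter Smad3 probe (A_55_P2101001, NM_016769) read 318.6 and 274.8, a log2 ratio of -0.53 ± 0.20. The dimmer (A_51_P441022) read 45.2 and 35.8, a log2 ratio of -0.65 ± 0.25. These were 0.12 apart, with an error of 0.32 for the distance, and both stayed below 0 without scaling, at -0.21 and -0.34.

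Of the Smads of the BMP branch, Smad1 was within 2-fold and Smad5 differed between its probes. Smad1 read 204.5 for WT and 212.3 for ESAM-KO at its brighter probe (A_55_P2029285, NM_008539), a log2 ratio of -0.26 ± 0.21. The other Smad1 probe (A_52_P65108) read 13.4 and 16.4 and was well above background in ESAM-KO only. It has no ratio, because its scaled levels of 0.0667 and 0.0652 put the bound under 1-fold. Smad5 probe A_65_P06572 (NM_001164041) read 241.0 for WT and 111.1 for ESAM-KO, giving a log2 ratio of -1.44 ± 0.21, or 2.70-fold lower. At probe A_55_P2107972 of the same accession, Smad5 read 196.2 and 229.0, a log2 ratio of -0.09 ± 0.21. All 4 of these Smad5 readings were well above background, and the probes were 1.34 apart with an error of 0.29 for the distance. The lower probe stayed past 2-fold under each scaling and with normexp, with log2 ratios between -1.57 and -1.12.

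Smad4, the Smad that both branches have in common, was within 2-fold at both probes, and Smad6 was not detected. The brighter Smad4 probe (A_55_P2112622, NM_008540) read 926.1 for WT and 1147.2 for ESAM-KO, giving a log2 ratio of -0.01 ± 0.20. At the other Smad4 probe (A_55_P2112617) the intensities were 142.6 and 143.0, a log2 ratio of -0.31 ± 0.21. Smad7, an inhibitor that TGF-beta itself induces, read 597.1 for WT and 465.8 for ESAM-KO (A_51_P403636, NM_001042660), a log2 ratio of -0.68 ± 0.20, or 1.60-fold lower. Smad6 (A_55_P2129658, NM_008542) read 2.90 and 3.03, which is at background level for both genotypes, so no ratio is given. In the RefSeq annotation Smad6 and Smad3 lie near each other, with 5 annotated genes between them and 0 of these protein-coding, and Smad3 was detected at both probes on both arrays.

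**Figure D2:**
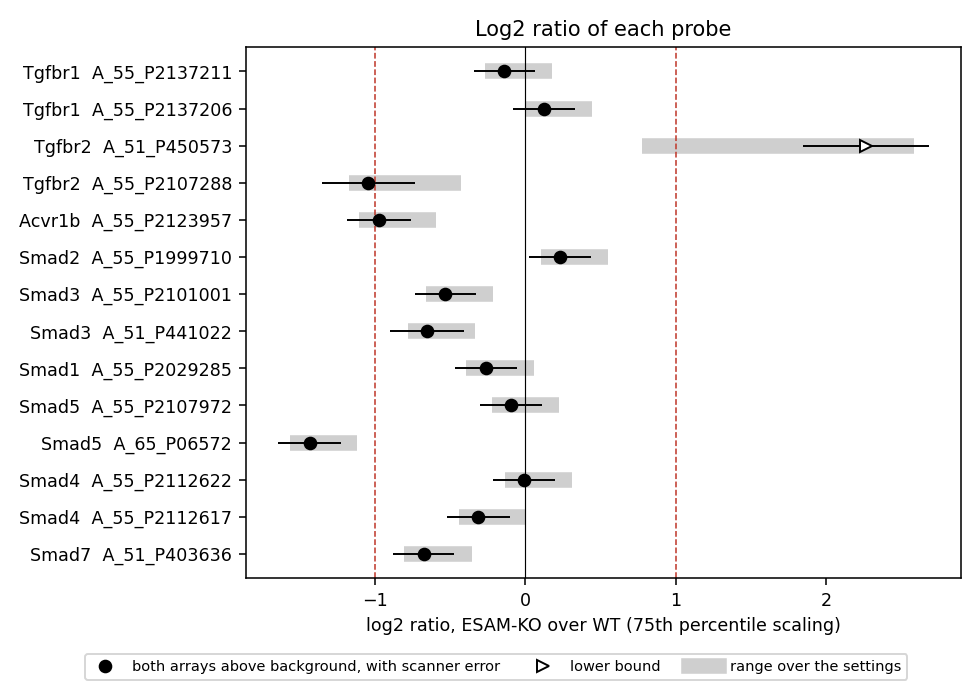
Log2 ratio of ESAM-KO over WT for the 14 probes with a ratio or a bound, with the error of the scanner software (black bars, for the open triangle that of the measured ratio), the range over the main and alternative settings (grey) and the 2-fold criterion (dashed). Only Smad5 A_65_P06572 keeps its whole grey range beyond 2-fold, and the Tgfbr2 probes lie on opposite sides of 0.

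Of the 14 probes with a ratio or a bound, 3 were past 2-fold, from Smad5 and Tgfbr2, 1 of them higher and 2 lower in ESAM-KO. Over the 18366 named probes with a ratio or a bound, 16.5% were past 2-fold, 7.86% higher and 8.65% lower. A share of 21.4%, 3 of 14, is near that background, so the set did not stand out from the other probes by its number of calls. The balance of higher and lower calls over all named probes moved with the scaling. Of those past 2-fold, 52.4% were lower in ESAM-KO, compared with 64.1% with median scaling, 26.8% without scaling and 64.4% with normexp and quantile normalization. The 3 calls in the set went in the same directions under every setting that kept them.

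The log2 ratio was below 0 for 11 of the 13 probes measured on both arrays, all but those of Smad2 and the dimmer Tgfbr1 probe, with a median of -0.31. The 13 probes belonged to 9 genes, with 2 each from Smad3, Smad4, Smad5 and Tgfbr1, and probes of 1 gene are not separate observations. The 11 included both probes called lower past 2-fold, and those of Smad4 A_55_P2112622, Smad5 A_55_P2107972 and Tgfbr1 A_55_P2137211, at -0.01, -0.09 and -0.14, were smaller than their scanner error. Over the 16267 named probes measured on both arrays, 51.3% were below 0, the median was -0.02 and the middle of the distribution, from the 25th to the 75th percentile, ran from -0.39 to 0.35. Between 10 and 12 of the 13 were below 0 under the other normalizations. Without scaling, 6 of the 13 were below 0 and the median of the set was 0.00, whereas that of all named probes was 0.30, so the gap between the medians was the same and the direction was not. The ratios of Smad1, Smad4, Tgfbr1 A_55_P2137211 and Smad5 A_55_P2107972 were all above 0 in that setting, whereas those of Smad3, Smad7 and Acvr1b stayed below it. The probes whose log2 ratio exceeded 2 times its scanner error numbered 6 of 13, and belonged to Acvr1b, Smad3, Smad5, Smad7 and Tgfbr2. The share of all named probes that did so was not computed, so this count has no background to be set against.

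**Figure D3:**
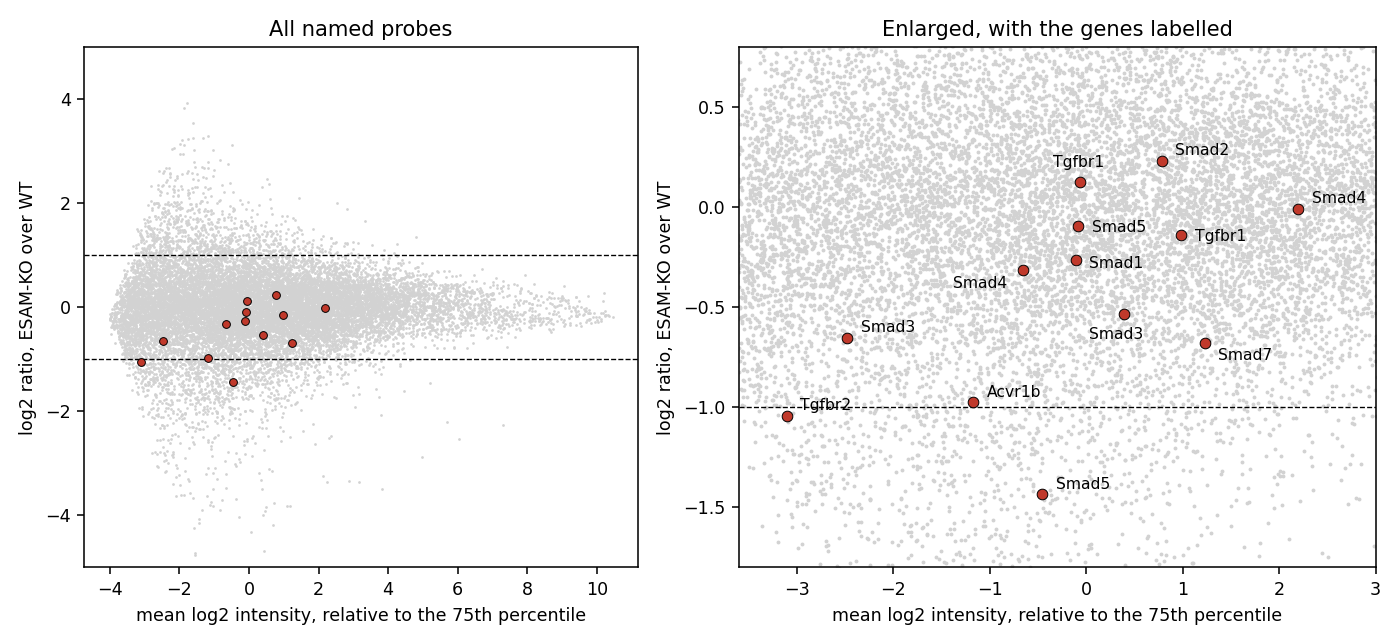
Log2 ratio of ESAM-KO over WT against the mean log2 intensity of the 2 arrays relative to their 75th percentile, for the 16267 named probes measured above background in both genotypes (grey) and the 13 such probes of the Smad and receptor genes (red), with the 2-fold criterion dashed and the right panel enlarged. The red points lie within the grey cloud, 11 of them below 0, and the grey cloud is wider at low than at high intensity.

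The dim probes of the array scattered more than the bright ones. Among the named probes measured on both arrays, 19.5% of the dimmest quartile by mean intensity were past 2-fold, 20.4% of the next, 10.8% of the one after and 2.95% of the brightest. Tgfbr2 A_55_P2107288 and the dimmer Smad3 probe were in the dimmest quartile. Both Smad5 probes, Acvr1b, Smad1, the dimmer Smad4 and the dimmer Tgfbr1 probe were in the next, and the brighter Smad4 probe alone was in the brightest. Repeated spots gave a further measure of error within the arrays. For the 162 probes with 8 or more spots in the intensity range of the set, the SD of the log2 ratio over the spots had a median of 0.14, a 90th percentile of 0.27 and a maximum of 0.63. The members were printed as 1 spot each, so this spread is that of other probes.

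Genes with a pair of measured probes show how far 2 readings of 1 gene can differ on these arrays. Where a gene had 2 or more probes measured on both arrays, as 3056 genes did, the brightest 2 differed by a median of 0.41 in log2 ratio, and 38.0% had opposite signs. The distance was above 1 for 20.0% of these genes. Smad3 (0.12), Tgfbr1 (0.27) and Smad4 (0.30) lay below the median. Smad5, at 1.34, was exceeded or matched by 12.3% of the genes. Smad1 and Tgfbr2 are not among these genes, because 1 probe of each was well above background in ESAM-KO only. The Tgfbr2 probes were 3.31 apart. Which part of the transcript each probe binds is not given in the sources used here, so the probes of Smad5 and of Tgfbr2 could not be assigned to transcript variants.

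**Figure D4:**
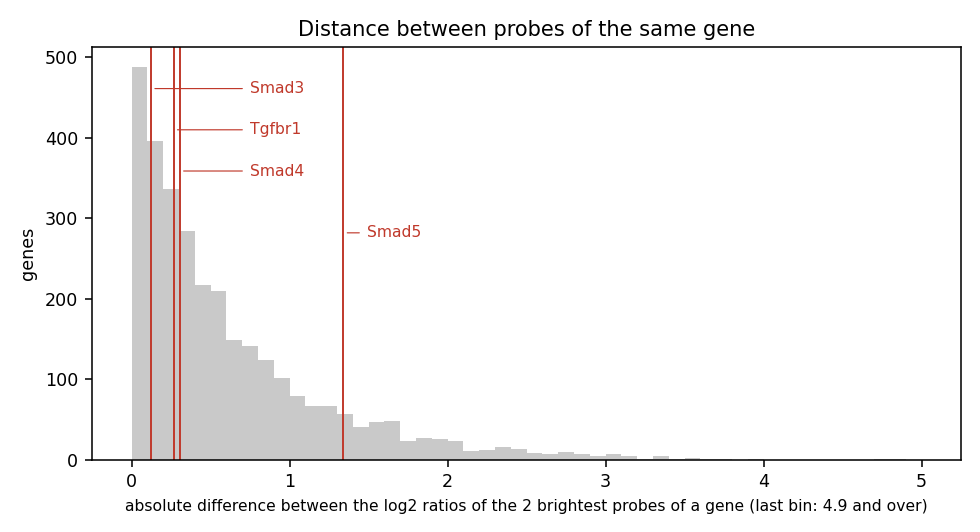
Absolute difference between the log2 ratios of the 2 brightest probes of a gene, for the 3056 genes that had 2 or more such probes measured on both arrays (grey, number of genes per bin of 0.1), with the values of Smad3, Tgfbr1, Smad4 and Smad5 as red lines. The first of these lie at the left, among most genes, and Smad5 lies at 1.34.

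The rest of the pathway was read from 86 further genes of the TGF-beta and BMP systems, each by its brightest probe. Ratios or bounds were obtained for 62, and neither array was well above background for 24. By more than 2-fold, 6 were higher and 2 were lower in ESAM-KO, 12.9% of the 62. Over the 14136 named genes with a ratio or a bound, 15.4% were past 2-fold, 6.99% higher and 8.43% lower, so this share too was near the background. The median log2 ratio of the 53 measured on both arrays was -0.17, and that of all genes so measured was -0.02.

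Among 20 ligands, 12 were measured on both arrays and 2 had a bound. The other 6 were well above background on neither array. By more than 2-fold, 1 was higher and 0 lower. Bmp2, a BMP ligand, read 28.2 for WT and 70.8 for ESAM-KO, giving a log2 ratio of 1.01 ± 0.26, at the edge of the criterion. Tgfb1, the main TGF-beta of blood cells, was printed as 10 spots and read 643.6 and 850.0, with a mean log2 ratio of 0.08 and an SD of 0.06 over the spots. The 12 other receptors and co-receptors held 0 genes past 2-fold, with 7 measured on both arrays and 5 on neither. Acvr2a (-0.21), Acvr2b (-0.46), Bmpr2 (0.14) and the brighter (-0.06) and the dimmer (0.69) probe of Acvr1 were measured, whereas Bmpr1a and Acvr1c were not well above background. Eng, the co-receptor endoglin that was also a sort marker, read 374.9 for WT and 268.7 for ESAM-KO, giving a log2 ratio of -0.80 ± 0.20.

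Of the 17 genes of ligand latency and extracellular antagonism, 7 were measured on both arrays and 2 had a bound. The other 8 were well above background on neither array. Past 2-fold, 2 were higher and 0 lower, both as bounds. Ltbp1, which tethers latent TGF-beta to the matrix, read 13.6 for WT, not well above background, and 51.1 for ESAM-KO. The WT reading was kept as it was, so 3.02-fold higher is the measured log2 ratio, 1.59 ± 0.41. Itgav, the alpha chain of integrins that release TGF-beta from its latent form, read 8.13 and 44.4 and was at least 2.83-fold higher. Its other probe had the same direction, at least 3.57-fold higher.

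The 24 Smad partners and regulators held 3 genes higher and 1 lower, with 19 measured on both arrays, 3 with a bound and 2 on neither. Smurf1, a ubiquitin ligase that marks Smad1 and Smad5 for breakdown, read 650.5 for WT and 243.2 for ESAM-KO, giving a log2 ratio of -1.74 ± 0.21, or 3.34-fold lower. Its relative Smurf2 was within 2-fold at 3 probes, at -0.34, 0.78 and 0.69. Tob1, which binds Smads and slows division, read 29.6 and 119.7, a log2 ratio of 1.70 ± 0.26. Rnf111, a ubiquitin ligase that marks Smad7 and the Ski proteins for breakdown, read 95.9 and 247.1, a log2 ratio of 1.05 ± 0.21. Ski, a corepressor that holds Smad2, Smad3 and Smad4 inactive, read 4.51 in WT, not well above background, and 60.9 in ESAM-KO, at least 3.88-fold higher. Its relative Skil was at -0.39 over 9 spots and at -0.27 at a second probe. Zfyve9, which presents Smad2 and Smad3 to the receptor, was at -0.57 and Trim33, an alternative partner of Smad2 and Smad3 in erythroid cells, at -0.32, both within 2-fold. Smad9, the remaining Smad of the BMP branch, was at background level in both genotypes.

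Of 18 target genes of TGF-beta and BMP, 10 were measured on both arrays and 2 had a bound. The other 6 were well above background on neither array. By more than 2-fold, 0 were higher and 1 was lower. Cdkn1a, a cell cycle inhibitor that TGF-beta and other signals induce, read 347.3 for WT and 130.1 for ESAM-KO. Its log2 ratio was -1.74 with an SD of 0.13 over 10 spots, which ranged from -1.87 to -1.48. A dimmer Cdkn1a probe, well above background in WT only, gave a bound of -0.57. The BMP targets Id1 and Id3 were at 0.59 ± 0.27 and 0.62 ± 0.24, within 2-fold, and Id2 was not above background in either genotype. Smurf1 and Cdkn1a were the only genes of these lists that also passed 2-fold with normexp and quantile normalization, and Bmp2 and Rnf111 were within 2-fold with median scaling.

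**Figure D5:**
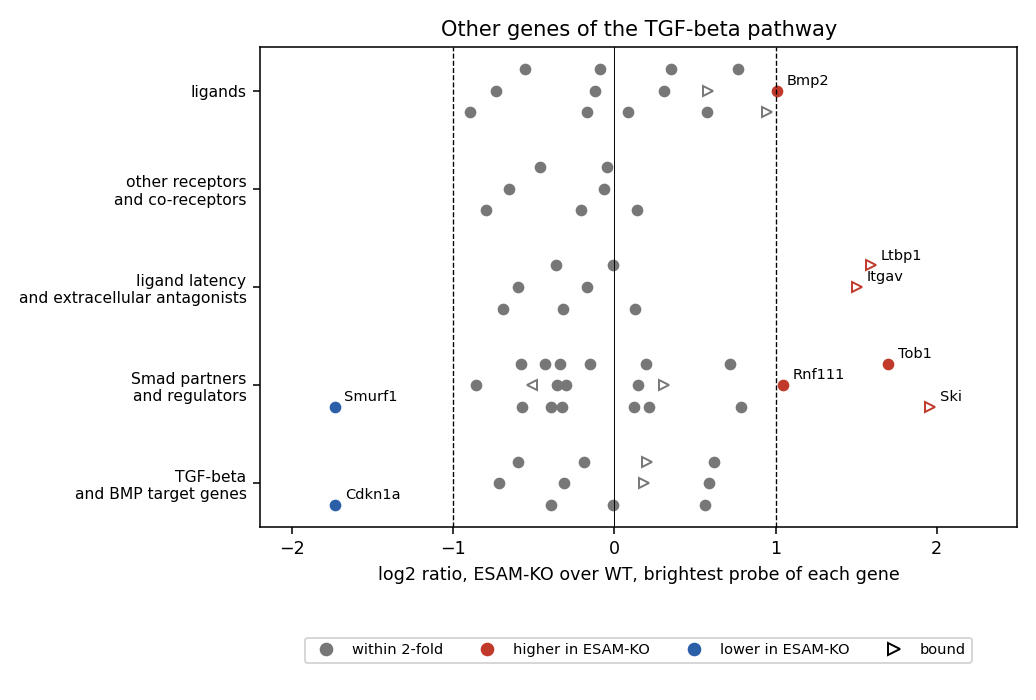
Log2 ratio of ESAM-KO over WT for the other genes of the TGF-beta pathway, each by its brightest probe, in rows by list (points in a row are spread vertically for legibility), with bounds as open triangles and the 2-fold criterion dashed. A gene of 2 lists appears in both rows, and the 8 genes past 2-fold are named, 6 to the right and 2 to the left.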

How the data were processed

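Both arrays were Agilent SurePrint G3 mouse arrays, hybridised with Cy3-labelled cDNA amplified by a whole transcriptome kit, on 1 slide and in 1 scan. The deposited intensity values were made by the authors with Agilent Feature Extraction 10.10.1.1 per the file headers, with background subtraction and detrending within the array and no scaling between arrays. The deposited series table rounds the same values. Flags of the scanner software were deposited with them.

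Log2 intensities were set to each array's 75th percentile over the 59305 non-control spots, 254 spots flagged as outliers were left out, and spots of a probe were averaged. A probe counted as well above background if the scanner flag held for over 50% of its spots, and it held for 57.3% of WT and 61.1% of ESAM-KO spots. No spot was saturated. Accessions were matched, without versions, to RefSeq of GRCm38.p6 to obtain symbols alone, which gave 48.9% of the probes a name. The array design used mm9, so no coordinates are given.

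With 1 array per genotype no test was run. The members and gene lists were chosen with earlier results of these data known. Named were all members, Esam, each pathway gene past 2-fold and a preset group of receptors, Smad partners and targets. No gene was named for a pattern like a member's, since 2 arrays give none. Alternatives were other scalings, normexp (offset 50, on median spot signals, since the files hold no mean), the series table, detection filters, outlier spots kept and thresholds of 1.5-fold and 3-fold. The counts and sums of the erythroid and macrophage marker lists are not reported here. The computation of ratios and 2-fold calls was checked on simulated intensities with known folds. These folds were well past the criterion and set on probes clearly above background. The check therefore did not cover calls near 2-fold, dim probes or the rule for bounds. Python 3.11.15, pandas 2.3.3, numpy 2.4.6, R 4.3.3 and limma 3.58.1 were used.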

Additional observations from a re-analysis of the deposited data

How the results depend on the processing

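The number of probes of the set past 2-fold, 3, was between 2 and 4 under the other scalings, the series table, the detection filters and with outlier spots kept, and 1 with normexp and quantile normalization (Smad5 A_65_P06572). It was 6 at 1.5-fold and 1 at 3-fold. Of all named probes with a ratio or a bound, 35% were past 1.5-fold, 6.33% past 3-fold and, with normexp, 5.07% past 2-fold. Counted over genes, the number past 2-fold was 1 by the brightest probe and 1 by the mean of the probes measured on both arrays. These 2 rules were chosen after seeing the data. Both calls were of Tgfbr2, higher in ESAM-KO by the first rule and lower by the second. By the brightest probe, 15.4% of all named genes were past 2-fold, and for the mean no such share is given here. The median log2 ratio of the set, -0.31, was 0.004 without scaling and between -0.44 and -0.21 under the others. The named probes past 2-fold, 3032, became 932 with normexp, 5618 when undetected probes were included, 6427 for the 1.5-fold threshold and 1163 for the 3-fold one. The pathway genes past 2-fold, 8, became 2, 19, 22 and 5 under the same settings, and 5 if detection on both arrays was required. Without scaling, 3526 named probes and 12 pathway genes were past 2-fold. By construction, the offset of normexp draws dim ratios toward 0, and the filters and thresholds act on the counts. Normexp also started from other spot signals than the main setting, and the part of each in its lower counts was not tested. Of 84 values of single probes under the normalizations and the series table, 66 moved by less than the scanner error, 18 by more, and 0 of those past 2-fold changed sign. Signal over background limits Smad6, the dimmer Smad1 probe and both probes of Tgfbr2. No paired analysis was possible because there was a single pool per genotype.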

Other observations

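Some further pathway genes had a dimmer probe past 2-fold although the brightest was within it; they were picked after their values were seen. Gdf3, a ligand of the TGF-beta family, had log2 ratios of 0.31 ± 0.21 at the brighter probe (281.1 in WT and 433.0 in ESAM-KO) and 2.05 ± 0.22 at the other (54.3 and 280.6). Ltbp3, a latent TGF-beta binding protein, read 1729.9 and 1422.3 at the brighter probe, a log2 ratio of -0.60 ± 0.20, and 5.00 and 46.2 at the dimmer, at least 2.95-fold higher in ESAM-KO. For Wwp1, a ubiquitin ligase of the Smurf family, the brighter probe was at 0.79 ± 0.23 and the dimmer gave at least 2.70-fold higher, the same direction. Gdf15, a stress-induced member of the family with a single probe, was within 2-fold by its bound. It was not well above background in WT, at 4.43, and read 30.3 in ESAM-KO, at least 1.93-fold higher.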
